A study of Mus musculus with 10 samples.

Results

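The haematopoietic stem and progenitor cells (HSPC) of 2 single-mutant mouse lines, Npm1c and Flt3-ITD, were compared directly with each other, gene by gene. The comparison took every gene with at least 1 RPKM (reads scaled to gene length and to the size of the library) in at least 2 of the 4 libraries of these lines, which kept 8595 of the 16771 genes listed. Just inside that minimum, the second highest of the 4 values was 1.0005 RPKM for Cxx1a, 1.002 RPKM for Cmtr1 and 1.002 RPKM for Fbxl15. Just outside it were Rogdi at 0.9996 RPKM, Osbpl1a at 0.9995 RPKM and Slc1a4 at 0.9992 RPKM. A gene could enter through 1 line alone, so a gene present in a single line had to differ. Of the genes named below, Mnda, Phf11b, Klrb1f, Nrg1 and Upk1b reached the minimum in Flt3-ITD alone. Crim1, Serpina3b, Amd2, Gm5611 and Hopx did so in Npm1c alone. Members of gene lists that entered this way are marked where their list is described.

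NPM1 is an abundant nucleolar chaperone that shuttles to the cytoplasm and takes part in ribosome assembly, and its leukaemic form gains a nuclear export signal that moves it out of the nucleolus. In human acute myeloid leukaemia this form goes together with high expression of HOXA and HOXB genes. FLT3 is a receptor tyrosine kinase of early progenitors, and an internal tandem duplication in its juxtamembrane region makes it signal without ligand through STAT5, the MAPK cascade and PI3K. The 2 mutations occur together often in that disease, and each alone in mice gives a milder disorder than both combined.

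All groups were C57BL/6 bone marrow cells negative for lineage markers, kept after magnetic removal of cells carrying them, with 2 libraries per group, described by the submitters' titles as replicates. Npm1c HSPC carried 1 floxed mutant Npm1 allele together with Mx1-Cre (Npm1flox-cA/+;Mx1-Cre+), a recombinase under the promoter of the interferon-inducible gene Mx1. Flt3-ITD HSPC carried 1 knocked-in allele (Flt3ITD/+), and their label names no Cre. The Cre allele and the Npm1 mutation therefore cannot be told apart in this comparison, and ages and any induction treatment were not given in the sources used here. Levels in double mutant HSPC (Npm1flox-cA/+;Flt3ITD/+;Mx1-Cre+) and in wild-type (WT) HSPC are set beside those of the single mutants with no test. A lineage-negative fraction is a mixture of progenitors, so fewer cells of a type and less RNA per cell cannot be told apart in any result below.

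The 4 libraries had denominators of 53914454 and 53754187 reads for Npm1c and 54899458 and 50227463 reads for Flt3-ITD, as recovered from the values. Listed genes took 60.9% and 63.1% of these reads in Npm1c and 69.5% and 63.5% in Flt3-ITD, so levels below were rescaled to a common size before comparison. The libraries within each line are less alike than those of the other HSPC groups. The standard deviation over genes of the log2 difference between replicates was 0.165 in Npm1c and 0.235 in Flt3-ITD, against 0.0866 in double mutant and 0.0856 in WT HSPC. The spread in the fit is shared by all 4 groups and is thus smaller than that of the 2 groups compared. Flt3-ITD replicate 1 held more of the primary granule transcripts, with a summed level of 1968 RPKM over 14 genes against 952 RPKM in replicate 2. Npm1c replicate 2 held more late neutrophil transcripts, with 475 RPKM over 24 genes against 112 RPKM in replicate 1. Y-linked transcripts were present in Npm1c replicate 2 (summed 12.5 RPKM as deposited) and Flt3-ITD replicate 1 (13.4 RPKM) and next to absent in the other libraries, so each line has 1 library of each sex by this measure.

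In Npm1c HSPC, 671 genes (7.81% of those tested) were higher and 1098 genes (12.8%) were lower, together 20.6%, than in Flt3-ITD HSPC, at an adjusted p under 0.05 in limma (Benjamini-Hochberg over the 8595 genes). Most differences were small: 13 of the higher and 75 of the lower genes differed at least 2-fold. The called genes were lower in 62.1% of cases after rescaling, in 84.8% on the scale as deposited, where the median gene sat at -0.09 on the log2 scale, and in 50.3% after quantile normalization. For all 1769 called genes both libraries of one line lay above both of the other; across all genes tested, 31.1% had both Npm1c libraries higher and 29.7% had both lower. For the called genes, that lack of overlap fixes the sign between the pair of libraries with Y-linked transcripts (male-marked). It fixes it between the pair without (female-marked) as well, so nothing is read from the equal sign in both pairs. A fit on the 4 libraries alone, with only their own spread, called 13 genes higher (0.151%) and 38 lower (0.442%), together 0.593% of those tested and all of them among the 1769. Library weights gave 182 higher (2.12%) and 617 lower (7.18%), together 9.3%. With 2 libraries per group these weights follow the spread of the group. Both libraries of a line got the same weight, so no single library was weighted down. The count was 132 higher and 416 lower without Npm1c replicate 1, 170 and 376 without Npm1c replicate 2, 509 and 1065 without Flt3-ITD replicate 1, and 1582 and 2015 without Flt3-ITD replicate 2. Below, "rose", "fell", "higher" and "lower" with a p refer to the 8-library fit. A p introduced by "but" is one where leaving out that library ended the call. Genes that also passed in the 4-library fit are named as such. Every list count below stands beside the shares of all genes tested, 7.81% higher and 12.8% lower. A count near these shares is not a result about the list.

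**Figure D1:**
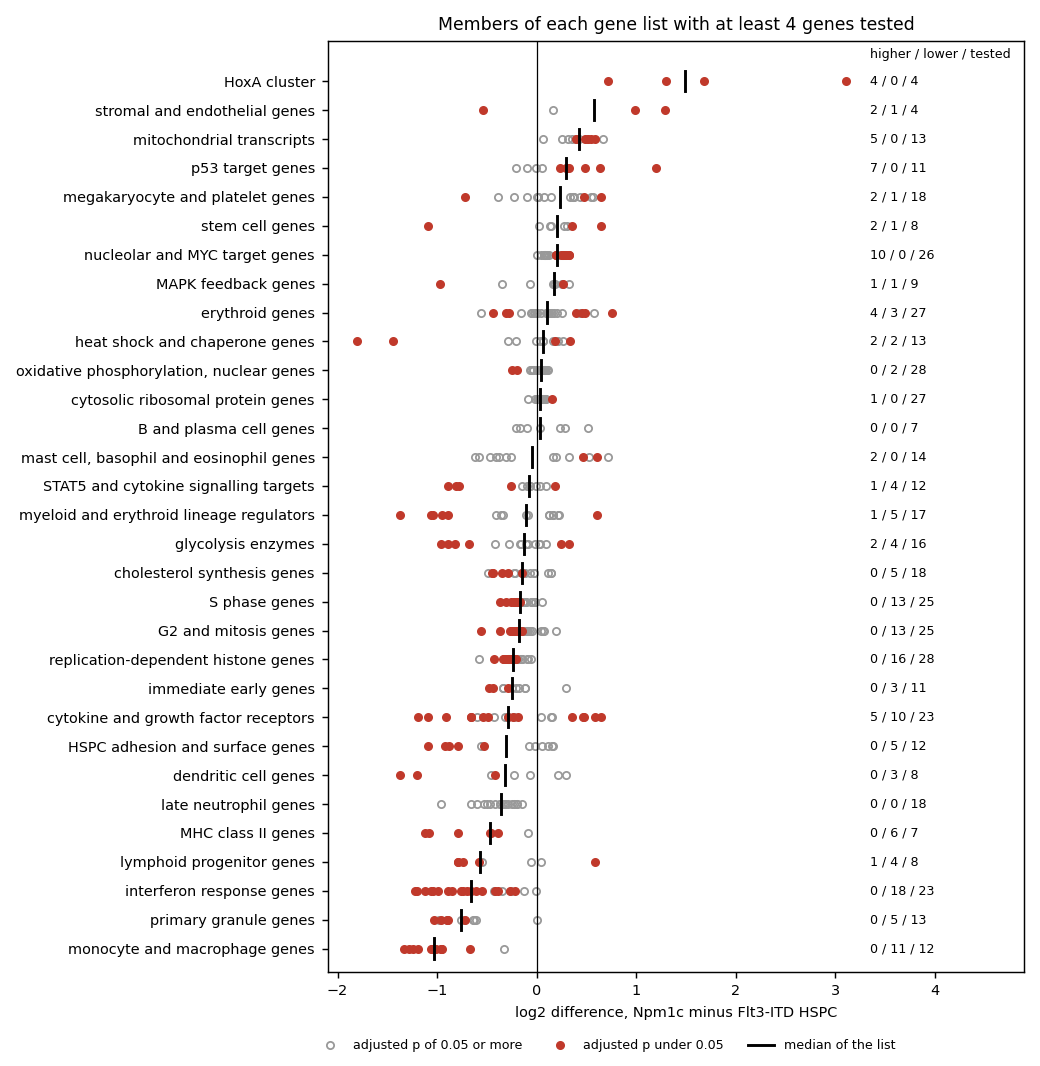
Log2 difference, Npm1c minus Flt3-ITD HSPC, of each tested member of the gene lists with at least 4 genes tested; a point is 1 gene, filled where its adjusted p was under 0.05, the bar is the median of the list, and the numbers at the right count genes higher, lower and tested. The HoxA genes stand at the top with a median of 1.49 and the monocyte and macrophage genes at the bottom with -1.03.

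Neither mutated gene passed the test. Npm1 (chromosome 11, 33152287 to 33163206, minus strand) had 281 and 303 RPKM in Npm1c HSPC, against 266 and 287 RPKM in Flt3-ITD HSPC (log2 difference 0.08 ± 0.06 SE, adjusted p = 0.33). Its level was 169 and 165 RPKM in double mutant HSPC and 249 and 246 RPKM in WT HSPC. Flt3 (chromosome 5, 147330741 to 147400489, minus strand) had 3.65 and 3.45 RPKM in Npm1c HSPC, against 4.77 and 3.77 RPKM in Flt3-ITD HSPC (log2 difference -0.23 ± 0.09 SE, adjusted p = 0.12), and it passed without Flt3-ITD replicate 2 (adjusted p = 0.00116). Gene-level values do not separate the mutant from the normal allele, so neither gene checks the genotype labels.

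The largest rise was in the HoxA cluster on chromosome 6, homeobox genes that keep progenitors immature and are turned off as they mature. The 4 HoxA genes above the minimum rose. Hoxa10, Hoxa6 and Hoxa7 reached the minimum in no Flt3-ITD library and so were tested only through the line in which they were high, which fixed their direction, and nothing is read from the count. With no filter, 8 of 9 HoxA genes were higher in limma, 1 did not pass and none was lower. Hoxa10 (52231197 to 52240854, minus strand) had 5.21 and 4.16 RPKM in Npm1c HSPC, against 0.0880 and 0.111 RPKM in Flt3-ITD HSPC (log2 difference 3.11 ± 0.09 SE, adjusted p = 6.09e-05). Those levels rest on 1785 and 1468 reads in Npm1c and on 35 and 37 reads in Flt3-ITD. Hoxa9 (52223100 to 52231089, minus strand), the HoxA gene most often studied in leukaemia, had 4.55 and 4.30 RPKM in Npm1c HSPC, against 1.20 and 0.889 RPKM in Flt3-ITD HSPC (log2 difference 1.68 ± 0.09 SE, adjusted p = 3.71e-04). The groups were far apart for both genes, and the Flt3-ITD libraries lay near those of WT. Hoxa6 had 1.17 and 1.23 RPKM in Npm1c HSPC, against 0.273 and 0.116 RPKM in Flt3-ITD HSPC (log2 difference 1.30 ± 0.13 SE, adjusted p = 0.00234). Hoxa7 had 1.42 and 1.39 RPKM in Npm1c HSPC, against 0.816 and 0.523 RPKM in Flt3-ITD HSPC (log2 difference 0.71 ± 0.11 SE, adjusted p = 0.01, but 0.0529 without Npm1c replicate 1). Hoxa10, Hoxa9 and Hoxa6 passed in the 4-library fit as well. In double mutant HSPC the levels were 3.67 and 3.61 RPKM for Hoxa10 and 3.90 and 3.74 RPKM for Hoxa9, and in WT HSPC 0.111 and 0.109 RPKM for Hoxa10 and 0.830 and 0.881 RPKM for Hoxa9.

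Of the HoxA genes under the minimum, which were not tested, Hoxa5 came closest to it. It had 1.45 and 0.949 RPKM in Npm1c HSPC, against 0.371 and 0.151 RPKM in Flt3-ITD HSPC, with both Npm1c libraries above both Flt3-ITD libraries. Hoxa4 had 0.507 and 0.445 RPKM in Npm1c HSPC, against 0.320 and 0.280 RPKM in Flt3-ITD HSPC. For Hoxa2 and Hoxa3 the Npm1c libraries were also the 2 highest, at levels under 0.2 RPKM. Hoxa3 had 0.169 and 0.131 RPKM in Npm1c HSPC, against 0.0337 and 0.0247 RPKM in Flt3-ITD HSPC. Hoxa2 had 0.156 and 0.140 RPKM in Npm1c HSPC, against 0.0383 and 0.0456 RPKM in Flt3-ITD HSPC. Hoxa11 was listed at 0 and 0 RPKM in Npm1c and 0 and 0 RPKM in Flt3-ITD HSPC. None of the 8 HoxB genes listed reached the minimum, and the highest, Hoxb4, had 0.507 and 0.470 RPKM in Npm1c HSPC, against 0.497 and 0.450 RPKM in Flt3-ITD HSPC. With no filter, 2 of these 8 were higher, both at very low levels. Hoxb5 had 0.0463 and 0.0532 RPKM in Npm1c HSPC, against 0 and 0.00865 RPKM in Flt3-ITD HSPC. Hoxb3 had 0.0574 and 0.0433 RPKM in Npm1c HSPC, against 0.0110 and 0.0164 RPKM in Flt3-ITD HSPC. The Hox partner Meis1, a homeobox cofactor that binds DNA with HOXA9, was also under it, with 0.900 and 0.804 RPKM in Npm1c HSPC, against 0.781 and 0.600 RPKM in Flt3-ITD HSPC. None of the 3 partner factors tested passed, although 1 was higher after quantile normalization and with limma voom on recovered reads, and the log2 difference of Pbx2 was -0.08 (adjusted p = 0.32).

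**Figure D2:**
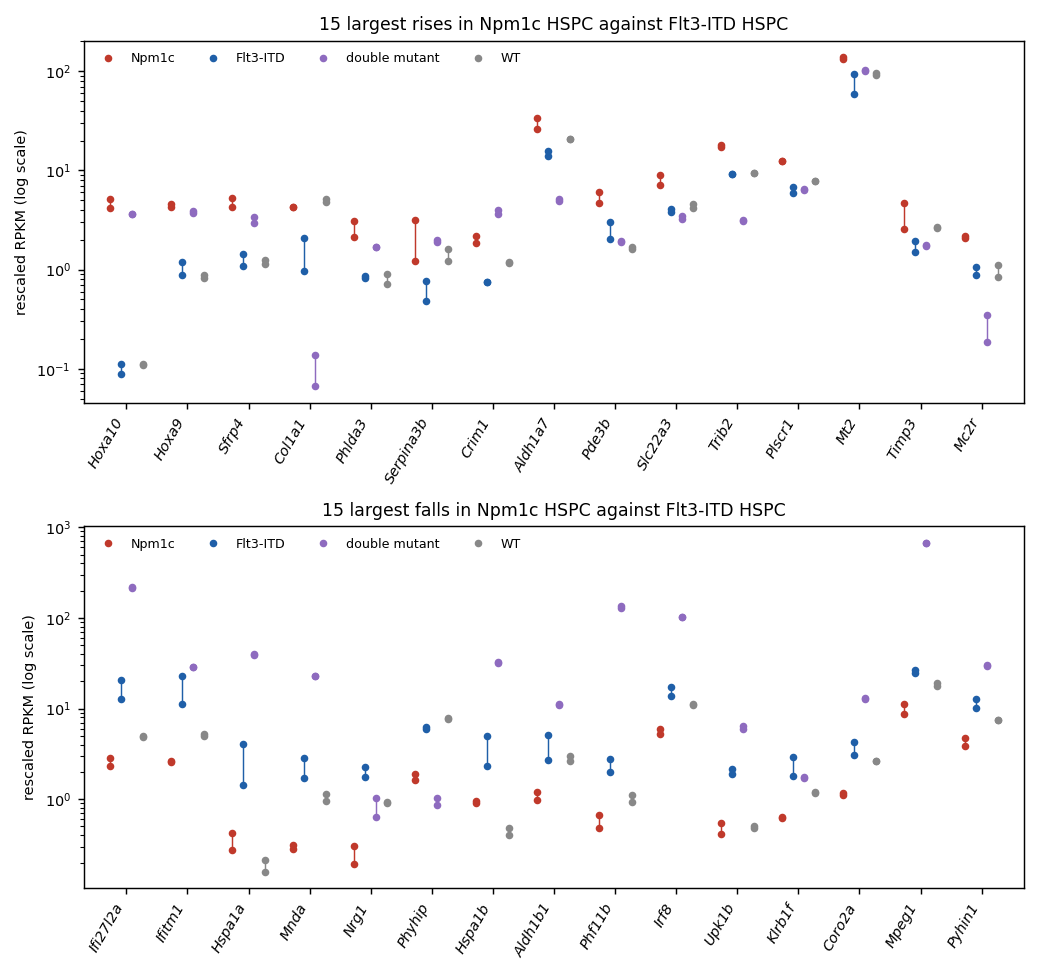
Rescaled RPKM of the 15 largest rises (top) and the 15 largest falls (bottom) in Npm1c against Flt3-ITD HSPC, on a log scale; each point is 1 library, a line joins the 2 libraries of a group, and double mutant and WT HSPC are shown beside them. Hoxa10 stands about as high in double mutant as in Npm1c HSPC, and Mpeg1, Irf8 and Ifi27l2a are highest in double mutant HSPC.

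The other large rises were in genes of different function. Sfrp4, a secreted antagonist of Wnt ligands, had 4.32 and 5.29 RPKM in Npm1c HSPC, against 1.10 and 1.45 RPKM in Flt3-ITD HSPC (log2 difference 1.58 ± 0.13 SE, adjusted p = 0.00141). Its WT libraries held 1.15 and 1.24 RPKM. Crim1, a membrane protein that binds bone morphogenetic proteins, had 2.16 and 1.85 RPKM in Npm1c HSPC, against 0.750 and 0.748 RPKM in Flt3-ITD HSPC (log2 difference 1.0 ± 0.07 SE, adjusted p = 0.00104). Trib2, a pseudokinase that promotes degradation of C/EBPα, had 18.1 and 17.2 RPKM in Npm1c HSPC, against 9.15 and 9.13 RPKM in Flt3-ITD HSPC (log2 difference 0.91 ± 0.04 SE, adjusted p = 2.37e-04). Plscr1, a phospholipid scramblase, had 12.4 and 12.4 RPKM in Npm1c HSPC, against 5.89 and 6.88 RPKM in Flt3-ITD HSPC (log2 difference 0.91 ± 0.07 SE, adjusted p = 0.00113). Sfrp4, Crim1, Trib2 and Plscr1 passed in the 4-library fit, and for Crim1, Trib2 and Plscr1 both Flt3-ITD libraries lay below both WT libraries.

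Slc22a3, an organic cation transporter, had 8.93 and 7.14 RPKM in Npm1c HSPC, against 4.13 and 3.77 RPKM in Flt3-ITD HSPC (log2 difference 0.93 ± 0.10 SE, adjusted p = 0.00338). Pde3b, a phosphodiesterase of cyclic nucleotides, had 4.70 and 6.11 RPKM in Npm1c HSPC, against 2.99 and 2.03 RPKM in Flt3-ITD HSPC (log2 difference 0.98 ± 0.16 SE, adjusted p = 0.0112, but 0.0562 without Npm1c replicate 2). Mt2, a metal-binding metallothionein, had 139 and 134 RPKM in Npm1c HSPC, against 59.3 and 94.1 RPKM in Flt3-ITD HSPC (log2 difference 0.86 ± 0.18 SE, adjusted p = 0.0227, but 0.0963 without Npm1c replicate 1 and 0.0888 without Npm1c replicate 2). In Mt2 Flt3-ITD replicate 1 was the lowest of the 4 libraries and replicate 2 lay at the level of WT. In Slc22a3 and Pde3b no library of one line overlapped the other, as in every gene with a call. Mc2r, the receptor for corticotropin, had 2.16 and 2.06 RPKM in Npm1c HSPC, against 0.882 and 1.06 RPKM in Flt3-ITD HSPC (log2 difference 0.83 ± 0.13 SE, adjusted p = 0.0096, but 0.054 without Npm1c replicate 1). Timp3, an inhibitor of matrix metalloproteinases, had 4.69 and 2.56 RPKM in Npm1c HSPC, against 1.49 and 1.94 RPKM in Flt3-ITD HSPC (log2 difference 0.86 ± 0.22 SE, adjusted p = 0.0391, but 0.11 without Flt3-ITD replicate 1 and 0.0729 without Npm1c replicate 1). In Timp3 the Npm1c libraries lie on either side of WT. Aldh1a7, an aldehyde dehydrogenase, had 26.2 and 33.8 RPKM in Npm1c HSPC, against 14.0 and 15.6 RPKM in Flt3-ITD HSPC (log2 difference 0.99 ± 0.11 SE, adjusted p = 0.0036). Serpina3b, of a clustered serpin family, had 3.15 and 1.21 RPKM in Npm1c HSPC, against 0.485 and 0.774 RPKM in Flt3-ITD HSPC (log2 difference 1.16 ± 0.32 SE, adjusted p = 0.0467, but 0.13 without Flt3-ITD replicate 1 and 0.0957 without Npm1c replicate 1). Aldh1a7 and Serpina3b have close paralogs that may share reads, so their levels are uncertain.

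Several of the 15 largest falls were in interferon-inducible or myeloid genes. Ifi27l2a, an interferon-inducible gene, had 2.88 and 2.33 RPKM in Npm1c HSPC, against 20.9 and 12.9 RPKM in Flt3-ITD HSPC (log2 difference -2.45 ± 0.20 SE, adjusted p = 0.00145). Its level was 214 and 220.5 RPKM in double mutant HSPC and 4.84 and 4.95 RPKM in WT HSPC, so the single mutants lay on either side of WT. Ifitm1, a membrane protein that restricts virus entry, had 2.61 and 2.59 RPKM in Npm1c HSPC, against 22.9 and 11.3 RPKM in Flt3-ITD HSPC (log2 difference -2.42 ± 0.27 SE, adjusted p = 0.00348), with 5.18 and 4.99 RPKM in WT HSPC. Both Npm1c libraries were below and both Flt3-ITD libraries above WT for it. Mnda and Pyhin1 encode interferon-inducible nuclear proteins of the PYHIN family. Mnda had 0.310 and 0.280 RPKM in Npm1c HSPC, against 2.82 and 1.72 RPKM in Flt3-ITD HSPC (log2 difference -1.77 ± 0.17 SE, adjusted p = 0.00226). Pyhin1 had 3.90 and 4.70 RPKM in Npm1c HSPC, against 12.8 and 10.1 RPKM in Flt3-ITD HSPC (log2 difference -1.31 ± 0.12 SE, adjusted p = 0.00172). Phf11b, of a family of close copies that can share reads, had 0.486 and 0.667 RPKM in Npm1c HSPC, against 2.77 and 1.98 RPKM in Flt3-ITD HSPC (log2 difference -1.41 ± 0.14 SE, adjusted p = 0.00239). Klrb1f, a lectin-like receptor of a clustered family, had 0.617 and 0.632 RPKM in Npm1c HSPC, against 2.94 and 1.82 RPKM in Flt3-ITD HSPC (log2 difference -1.33 ± 0.16 SE, adjusted p = 0.00403). Ifi27l2a passed in the 4-library fit and the other 5 genes did not. No 2 libraries of different lines overlapped in any of them, as in every gene with a call.

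Irf8 (chromosome 8, 120736358 to 120756694, plus strand), a transcription factor required for monocytes and dendritic cells, had 5.97 and 5.25 RPKM in Npm1c HSPC, against 17.1 and 13.7 RPKM in Flt3-ITD HSPC (log2 difference -1.37 ± 0.10 SE, adjusted p = 0.00104). It lay at 103 and 103 RPKM in double mutant HSPC and 10.9 and 11.1 RPKM in WT HSPC, so Npm1c HSPC were below and Flt3-ITD HSPC above the WT libraries. Nrg1, a ligand of ERBB receptors, had 0.301 and 0.192 RPKM in Npm1c HSPC, against 2.29 and 1.76 RPKM in Flt3-ITD HSPC (log2 difference -1.75 ± 0.16 SE, adjusted p = 0.00183), with 0.935 and 0.900 RPKM in WT HSPC. Phyhip, a phytanoyl-CoA hydroxylase interacting protein, had 1.61 and 1.90 RPKM in Npm1c HSPC, against 5.92 and 6.19 RPKM in Flt3-ITD HSPC (log2 difference -1.54 ± 0.08 SE, adjusted p = 2.67e-04). For Phyhip the Flt3-ITD libraries were nearer to WT HSPC, which held 7.68 and 7.79 RPKM. Upk1b, a tetraspanin of the uroplakin family, had 0.548 and 0.413 RPKM in Npm1c HSPC, against 2.14 and 1.92 RPKM in Flt3-ITD HSPC (log2 difference -1.37 ± 0.08 SE, adjusted p = 4.41e-04). Here WT lay with Npm1c at 0.503 and 0.476 RPKM. Coro2a, a coronin that binds actin, had 1.11 and 1.18 RPKM in Npm1c HSPC, against 4.33 and 3.04 RPKM in Flt3-ITD HSPC (log2 difference -1.33 ± 0.13 SE, adjusted p = 0.00226). Aldh1b1, a mitochondrial aldehyde dehydrogenase, had 1.20 and 0.971 RPKM in Npm1c HSPC, against 5.16 and 2.70 RPKM in Flt3-ITD HSPC (log2 difference -1.43 ± 0.24 SE, adjusted p = 0.0112, but 0.0649 without Npm1c replicate 2). Irf8, Nrg1, Phyhip and Upk1b passed in the 4-library fit.

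Interferon response genes are switched on through factors such as STAT2 and IRF9 when type I interferon is sensed. Those on the list used here were lower together in Npm1c HSPC. The list does not hold every interferon-inducible gene, and Plscr1, which rose, is not on it. Of the 30 genes on the list 29 were listed and 23 were tested: 18 fell, none rose and 5 did not pass, with a median log2 difference of -0.66, against 0.01 for all genes. Of all genes tested, 12.8% fell. Ifit1, Iigp1, Irf7 and Oas3 reached the minimum in no Npm1c library, so these 4 could be tested only through Flt3-ITD. That fixed their direction, and all 4 are among the 18, so nothing is read from their part of the count. A filter at a mean of 2 RPKM leaves them out, and with it 12 of 14 members fell. The number that fell was not the same in every fit: it was 14 with library weights, 1 in the 4-library fit, 15 without Npm1c replicate 1, 12 without Npm1c replicate 2, 18 without Flt3-ITD replicate 1 and 19 without Flt3-ITD replicate 2. The type I response rests on a short element, the interferon-stimulated response element, which was searched for as a pair of GAAA with any 2 bases between them, on both strands (a pair of TTTC on the other) and with overlapping matches counted, in the RefSeq promoters of GRCm38.p6 (250 bases before to 50 after the start). Symbols matched for 19 of the 23 genes, and 13 of these 19 promoters held the element (68.4%), against 3.70% of the 6590 tested genes with a promoter and 3.99% of all 27025. It stood in 6.17% of the promoters of genes that fell and in 2.76% of those of genes that rose. Within the list it stood in 10 of the 14 genes with a promoter that fell and in 3 of the 5 that did not pass.

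The promoters of 4 members that fell and hold the element more than once are shown, chosen after their values were seen, 5′ to 3′ on the strand of the gene, with every base of a match in capitals.
Isg15, chr4:156200769-156201068, minus strand: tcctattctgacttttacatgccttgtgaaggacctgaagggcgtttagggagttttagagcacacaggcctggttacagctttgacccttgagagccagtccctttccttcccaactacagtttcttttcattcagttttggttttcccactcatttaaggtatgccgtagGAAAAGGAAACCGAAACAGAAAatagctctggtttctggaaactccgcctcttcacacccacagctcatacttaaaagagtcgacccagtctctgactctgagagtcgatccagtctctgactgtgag
Ifit1, chr19:34640639-34640938, plus strand: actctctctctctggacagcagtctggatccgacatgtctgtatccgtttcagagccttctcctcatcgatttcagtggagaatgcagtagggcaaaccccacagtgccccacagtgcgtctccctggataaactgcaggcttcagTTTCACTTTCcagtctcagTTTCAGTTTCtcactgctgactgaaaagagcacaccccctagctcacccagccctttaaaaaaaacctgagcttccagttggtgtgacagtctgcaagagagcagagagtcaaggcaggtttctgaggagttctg
Oas1a, chr5:120907476-120907775, minus strand: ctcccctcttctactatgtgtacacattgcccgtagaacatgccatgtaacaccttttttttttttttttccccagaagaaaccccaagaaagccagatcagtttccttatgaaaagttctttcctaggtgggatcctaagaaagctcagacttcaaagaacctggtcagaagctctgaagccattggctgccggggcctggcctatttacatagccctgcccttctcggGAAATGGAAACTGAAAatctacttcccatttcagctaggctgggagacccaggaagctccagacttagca
Gbp3, chr3:142559794-142560093, plus strand: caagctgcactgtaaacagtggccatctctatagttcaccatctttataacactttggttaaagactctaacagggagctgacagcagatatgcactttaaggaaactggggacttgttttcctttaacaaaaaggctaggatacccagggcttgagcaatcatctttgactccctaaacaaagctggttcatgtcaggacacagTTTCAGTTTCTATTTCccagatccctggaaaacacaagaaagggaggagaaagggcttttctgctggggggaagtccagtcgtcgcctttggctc

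In Isg15, Oas1a and Gbp3 the matches overlap and form 1 run, and in Ifit1 they stand apart. Isg15, a ubiquitin-like modifier, had 1.46 and 1.07 RPKM in Npm1c HSPC, against 3.31 and 3.76 RPKM in Flt3-ITD HSPC (log2 difference -1.20 ± 0.13 SE, adjusted p = 0.00338). Ifit1, which binds RNA lacking a methylated cap, had 1.01 and 0.555 RPKM in Npm1c HSPC, against 2.02 and 2.51 RPKM in Flt3-ITD HSPC (log2 difference -1.13 ± 0.17 SE, adjusted p = 0.00826). In both genes Npm1c replicate 2 was the lowest of the 4 libraries. Oas1a, a synthase of the oligoadenylates that activate RNase L, had 5.16 and 3.33 RPKM in Npm1c HSPC, against 9.13 and 8.45 RPKM in Flt3-ITD HSPC (log2 difference -1.0 ± 0.16 SE, adjusted p = 0.0106). Gbp3, a guanylate-binding GTPase, had 1.52 and 1.36 RPKM in Npm1c HSPC, against 4.10 and 3.08 RPKM in Flt3-ITD HSPC (log2 difference -1.06 ± 0.11 SE, adjusted p = 0.00301). No library of one line overlapped the other in these 4 genes, as in every gene with a call.

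Of the members with the smallest p, Gbp7, a further guanylate-binding protein, had 4.75 and 4.80 RPKM in Npm1c HSPC, against 8.70 and 8.15 RPKM in Flt3-ITD HSPC (log2 difference -0.76 ± 0.05 SE, adjusted p = 4.31e-04). It was the member that passed in the 4-library fit. Rtp4, which restrains the interferon response, had 1.71 and 1.28 RPKM in Npm1c HSPC, against 4.60 and 3.66 RPKM in Flt3-ITD HSPC (log2 difference -1.22 ± 0.12 SE, adjusted p = 0.00241). In double mutant HSPC Gbp7 stood at 9.06 and 9.07 RPKM and Rtp4 at 9.15 and 8.78 RPKM, above both lines. Oas3, of the same family as Oas1a, had 0.873 and 0.599 RPKM in Npm1c HSPC, against 2.15 and 1.92 RPKM in Flt3-ITD HSPC (log2 difference -1.05 ± 0.10 SE, adjusted p = 0.00234). Iigp1, an immunity-related GTPase, had 0.683 and 0.622 RPKM in Npm1c HSPC, against 1.32 and 1.52 RPKM in Flt3-ITD HSPC (log2 difference -0.74 ± 0.07 SE, adjusted p = 0.00226). Ifit2 had 2.45 and 2.52 RPKM in Npm1c HSPC, against 3.94 and 3.82 RPKM in Flt3-ITD HSPC (log2 difference -0.55 ± 0.06 SE, adjusted p = 0.0028). Irf9, one of the factors that carry the signal, differed by less than these targets. It had 3.82 and 3.73 RPKM in Npm1c HSPC, against 4.39 and 4.53 RPKM in Flt3-ITD HSPC (log2 difference -0.22 ± 0.05 SE, adjusted p = 0.0247, but 0.081 without Npm1c replicate 1 and 0.11 without Npm1c replicate 2). The gene that drives the Cre, Mx1, was under the minimum, with 0.0482 and 0.0327 RPKM in Npm1c HSPC, against 0.174 and 0.175 RPKM in Flt3-ITD HSPC, and 0.120 and 0.106 RPKM in WT HSPC. Among receptor subunits, chosen here after their values were seen, Ifnar1 of the type I receptor fell (log2 difference -0.19 ± 0.05 SE, adjusted p = 0.046, but 0.0869 without Flt3-ITD replicate 1, 0.14 without Npm1c replicate 1 and 0.15 without Npm1c replicate 2). Its partner Ifnar2 fell (log2 difference -0.28 ± 0.06 SE, adjusted p = 0.0236, but 0.0806 without Npm1c replicate 1 and 0.10 without Npm1c replicate 2). Of the type II receptor, Ifngr2 fell (log2 difference -0.48 ± 0.07 SE, adjusted p = 0.00913, but 0.0521 without Npm1c replicate 1) and Ifngr1 rose (log2 difference 0.48 ± 0.09 SE, adjusted p = 0.0192, but 0.0908 without Npm1c replicate 1 and 0.0638 without Npm1c replicate 2). Set against the WT libraries, which both lines share, both Npm1c libraries were below both WT libraries for 11 of the 23 genes and both Flt3-ITD libraries were above them for 19; over all 8595 genes these counts were 3559 and 2558. Monocyte markers moved with these genes: their summed level over 23 listed genes was 87.0 and 83.4 RPKM in Npm1c HSPC, against 225 and 151 RPKM in Flt3-ITD HSPC, with Cd300e at 0. Their part in the interferon result was not tested.

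**Figure D3:**
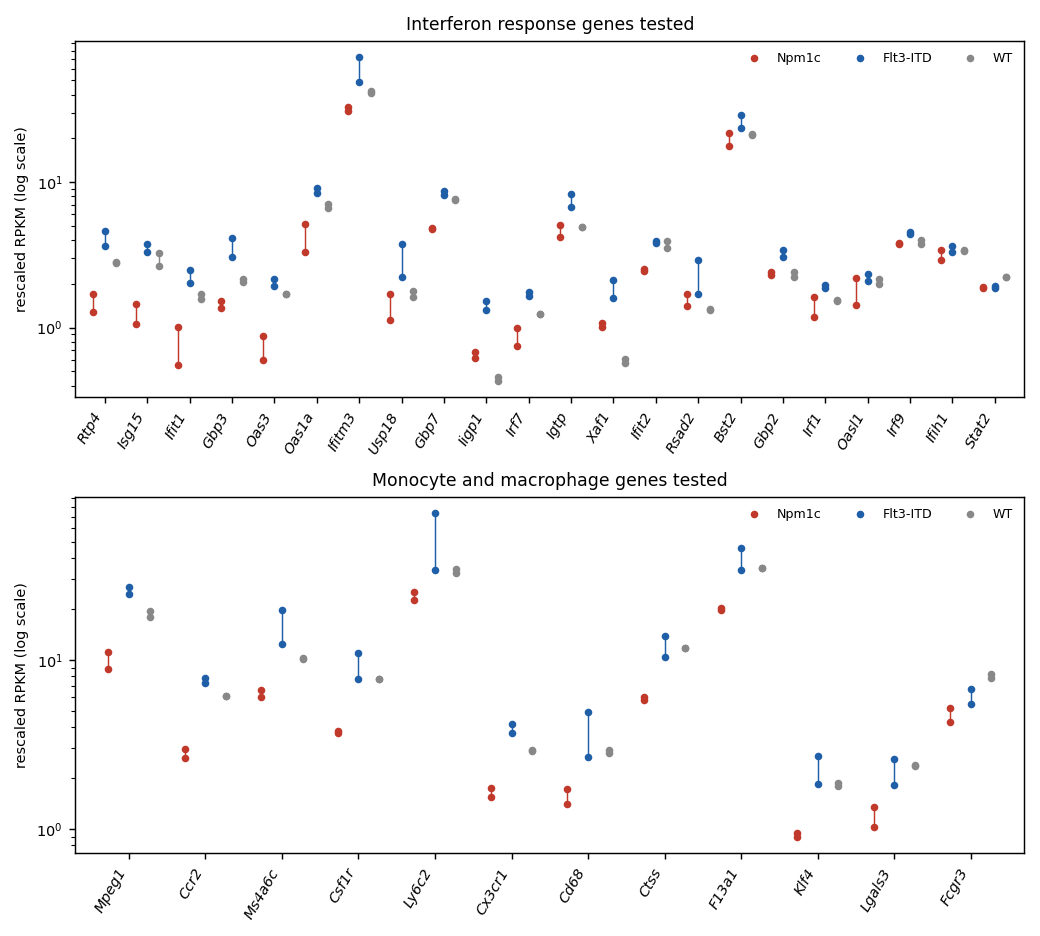
Rescaled RPKM, on a log scale, of 22 of the 23 interferon response genes tested (top) and the 12 monocyte and macrophage genes tested (bottom) in Npm1c, Flt3-ITD and WT HSPC; each point is 1 library and a line joins the 2 libraries of a group. The 2 Npm1c libraries lie below both Flt3-ITD libraries for 19 of the 22 interferon response genes shown and for all 12 monocyte genes. Over all genes tested this share was 29.7%. Flt3-ITD replicate 1 is above replicate 2 in all 12 monocyte genes, and in 4351 of all 8595 genes tested.

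Monocyte and macrophage genes fell as a group. Among them Klf4, given below, reached the minimum in no Npm1c library, so it was tested only through Flt3-ITD. Of 12 genes tested, 11 fell and none rose, with a median log2 difference of -1.03, and the number was 11 with library weights, 3 in the 4-library fit, 8 without Npm1c replicate 1, 9 without Npm1c replicate 2, 11 without Flt3-ITD replicate 1 and 12 without Flt3-ITD replicate 2. Ccr2, the chemokine receptor that lets monocytes leave the marrow, had 2.99 and 2.64 RPKM in Npm1c HSPC, against 7.83 and 7.32 RPKM in Flt3-ITD HSPC (log2 difference -1.29 ± 0.06 SE, adjusted p = 2.37e-04). Cx3cr1, the fractalkine receptor, had 1.75 and 1.54 RPKM in Npm1c HSPC, against 4.19 and 3.71 RPKM in Flt3-ITD HSPC (log2 difference -1.05 ± 0.07 SE, adjusted p = 9.53e-04). Mpeg1, a pore-forming protein of phagocytes, had 11.2 and 8.78 RPKM in Npm1c HSPC, against 26.9 and 24.4 RPKM in Flt3-ITD HSPC (log2 difference -1.33 ± 0.11 SE, adjusted p = 0.00145). These 3 genes passed in the 4-library fit, and in each the WT libraries lay between the single mutants. Csf1r, the receptor for macrophage colony-stimulating factor, had 3.79 and 3.70 RPKM in Npm1c HSPC, against 10.9 and 7.73 RPKM in Flt3-ITD HSPC (log2 difference -1.19 ± 0.13 SE, adjusted p = 0.00348), with 7.73 and 7.75 RPKM in WT HSPC. The WT libraries thus lay at the level of Flt3-ITD replicate 2 for it. Ctss, the lysosomal protease cathepsin S, had 5.81 and 5.99 RPKM in Npm1c HSPC, against 13.8 and 10.4 RPKM in Flt3-ITD HSPC (log2 difference -0.96 ± 0.11 SE, adjusted p = 0.00377). Ly6c2, the marker of inflammatory monocytes, had 25.0 and 22.5 RPKM in Npm1c HSPC, against 73.8 and 34.1 RPKM in Flt3-ITD HSPC (log2 difference -1.07 ± 0.30 SE, adjusted p = 0.0489, but 0.13 without Npm1c replicate 1 and 0.18 without Npm1c replicate 2), where Flt3-ITD replicate 1 stood far above replicate 2. Both Npm1c libraries were below both WT libraries for all 12 genes tested, and both Flt3-ITD libraries were above them for 4 of the 12. Over all genes tested these shares were 41.4% and 29.8%, so the 4 of 12 lies near the share of all genes. Fcgr3, an Fc receptor shared with neutrophils and other cells, was the member that did not pass, with 4.28 and 5.22 RPKM in Npm1c HSPC, against 6.69 and 5.47 RPKM in Flt3-ITD HSPC.

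Among regulators of the myeloid lineage 5 of 17 tested fell and 1 rose, and the number lower was 4 with library weights, 1 in the 4-library fit, 2 without Npm1c replicate 1, 2 without Npm1c replicate 2, 5 without Flt3-ITD replicate 1 and 9 without Flt3-ITD replicate 2. Those higher numbered 0 without Npm1c replicate 1, 0 without Npm1c replicate 2, 2 without Flt3-ITD replicate 1 and 6 without Flt3-ITD replicate 2. The regulators had 2 higher and 5 lower with listed-gene scaling. Beside Irf8, those that fell were Spi1, Klf4, Cebpa and Cebpb. Klf4 and Cebpb reached the minimum in no Npm1c library, so they were tested only through Flt3-ITD, which fixed their direction. Spi1, which encodes PU.1, had 3.87 and 4.13 RPKM in Npm1c HSPC, against 11.2 and 7.04 RPKM in Flt3-ITD HSPC (log2 difference -1.06 ± 0.18 SE, adjusted p = 0.0121, but 0.0642 without Npm1c replicate 1 and 0.0564 without Npm1c replicate 2). Klf4, a monocyte factor, had 0.895 and 0.943 RPKM in Npm1c HSPC, against 2.71 and 1.86 RPKM in Flt3-ITD HSPC (log2 difference -0.96 ± 0.13 SE, adjusted p = 0.00578). In both genes Flt3-ITD replicate 1 was the highest of the 4 libraries. Cebpa, needed for the step to granulocyte-monocyte progenitors, had 8.57 and 9.23 RPKM in Npm1c HSPC, against 20.9 and 13.8 RPKM in Flt3-ITD HSPC (log2 difference -0.89 ± 0.17 SE, adjusted p = 0.0168, but 0.0806 without Npm1c replicate 1 and 0.0678 without Npm1c replicate 2). Cebpb, which is used in emergency granulopoiesis, had 0.852 and 0.916 RPKM in Npm1c HSPC, against 3.11 and 1.75 RPKM in Flt3-ITD HSPC (log2 difference -1.04 ± 0.22 SE, adjusted p = 0.0236, but 0.0978 without Npm1c replicate 1 and 0.0894 without Npm1c replicate 2). In Spi1, Cebpa and Cebpb the WT libraries lay within or just beside the range of the Flt3-ITD libraries, and the Npm1c libraries were below WT. Gata2, a factor of stem cells and mast cells, was the gene that rose, with 5.64 and 5.96 RPKM in Npm1c HSPC, against 4.17 and 3.17 RPKM in Flt3-ITD HSPC (log2 difference 0.60 ± 0.11 SE, adjusted p = 0.0133, but 0.0556 without Npm1c replicate 1 and 0.0723 without Npm1c replicate 2). WT HSPC held 5.24 and 5.44 RPKM. Gata1, the main erythroid factor, did not pass, with 45.2 and 46.4 RPKM in Npm1c HSPC, against 37.9 and 44.0 RPKM in Flt3-ITD HSPC (log2 difference 0.16, adjusted p = 0.14).

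MHC class II genes, which present antigen on dendritic cells, B cells and macrophages, were low in both lines and lower in Npm1c: 6 of 7 tested fell, and the number was 5 with library weights, 0 in the 4-library fit, 4 without Npm1c replicate 1, 4 without Npm1c replicate 2, 5 without Flt3-ITD replicate 1 and 7 without Flt3-ITD replicate 2. H2-Eb1 had 1.45 and 1.96 RPKM in Npm1c HSPC, against 5.36 and 3.38 RPKM in Flt3-ITD HSPC (log2 difference -1.12 ± 0.20 SE, adjusted p = 0.0134, but 0.0692 without Npm1c replicate 1). H2-Aa had 0.981 and 1.59 RPKM in Npm1c HSPC, against 3.60 and 2.89 RPKM in Flt3-ITD HSPC (log2 difference -1.08 ± 0.17 SE, adjusted p = 0.0105). The Npm1c libraries were the lowest of the 4 for both genes. Cd74, the invariant chain that accompanies class II molecules, had 4.32 and 4.42 RPKM in Npm1c HSPC, against 6.75 and 5.80 RPKM in Flt3-ITD HSPC (log2 difference -0.47 ± 0.07 SE, adjusted p = 0.00634). H2-DMb1 and H2-DMa encode subunits of the complex that loads peptide on class II molecules. H2-DMb1 had 3.15 and 3.18 RPKM in Npm1c HSPC, against 6.69 and 5.06 RPKM in Flt3-ITD HSPC (log2 difference -0.79 ± 0.11 SE, adjusted p = 0.00592). H2-DMa had 14.4 and 13.1 RPKM in Npm1c HSPC, against 20.6 and 17.7 RPKM in Flt3-ITD HSPC (log2 difference -0.46 ± 0.08 SE, adjusted p = 0.0128, but 0.0708 without Npm1c replicate 2). The double mutant libraries held 1910.4 and 1909 RPKM of Cd74, far above both lines. Of 8 dendritic cell genes tested, 3 fell, but 2 higher and 4 lower without Flt3-ITD replicate 2. The dendritic cell list had 0 higher and 6 lower with no filter. The genes that fell were Irf8, Bst2 and Cd209a, of which Cd209a reached the minimum in Flt3-ITD alone. Cd209a, a lectin of monocyte-derived dendritic cells, had 0.333 and 0.596 RPKM in Npm1c HSPC, against 1.77 and 1.62 RPKM in Flt3-ITD HSPC (log2 difference -1.20 ± 0.12 SE, adjusted p = 0.00239). The class II transactivator Ciita was under the minimum, with 0.0602 and 0.102 RPKM in Npm1c HSPC, against 0.246 and 0.189 RPKM in Flt3-ITD HSPC. The dendritic cell factor Batf3 had 0.00535 and 0 RPKM in Npm1c HSPC, against 0.0185 and 0.0165 RPKM in Flt3-ITD HSPC.

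Genes of the primary granules, made at the promyelocyte stage, were lower in part: 5 of 13 tested fell, none rose, and the median log2 difference was -0.76. This count turned on single libraries: it was 6 with library weights, 0 in the 4-library fit, 0 without Npm1c replicate 1, 1 without Npm1c replicate 2, 7 without Flt3-ITD replicate 1 and 12 without Flt3-ITD replicate 2. Those higher numbered 1 without Flt3-ITD replicate 1. The granule list had 0 higher and 3 lower on the scale as deposited and 0 higher and 1 lower with no filter. Mpo, the myeloperoxidase, had 155 and 161 RPKM in Npm1c HSPC, against 426 and 223 RPKM in Flt3-ITD HSPC (log2 difference -0.96 ± 0.26 SE, adjusted p = 0.0416, but 0.14 without Npm1c replicate 1 and 0.14 without Npm1c replicate 2), with 245 and 257 RPKM in WT HSPC. Prtn3, proteinase 3, had 33.0 and 28.2 RPKM in Npm1c HSPC, against 90.9 and 43.6 RPKM in Flt3-ITD HSPC (log2 difference -1.04 ± 0.29 SE, adjusted p = 0.0483, but 0.12 without Npm1c replicate 1 and 0.19 without Npm1c replicate 2). Ctsc, which activates the granule proteases, had 2.59 and 2.74 RPKM in Npm1c HSPC, against 5.78 and 3.83 RPKM in Flt3-ITD HSPC (log2 difference -0.72 ± 0.15 SE, adjusted p = 0.022, but 0.0957 without Npm1c replicate 1 and 0.0848 without Npm1c replicate 2). For all 3 of these genes the call was lost without either Npm1c library. Elane, neutrophil elastase, did not pass, with 260.0 and 219 RPKM in Npm1c HSPC, against 642 and 256 RPKM in Flt3-ITD HSPC (log2 difference -0.76 ± 0.37 SE, adjusted p = 0.17). Flt3-ITD replicate 1 was above replicate 2 for all 13 genes, against 4351 of all 8595 genes tested. In Elane Flt3-ITD replicate 2 lay between the Npm1c libraries.

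None of the 18 late neutrophil genes tested passed in limma, and none had an unadjusted p under 0.05; limma voom on recovered reads called 0 higher and 0 lower. Their level differed within Npm1c. Ngp, a cathelin-like secondary granule protein, had 25.3 and 109 RPKM in Npm1c HSPC, against 70.0 and 71.1 RPKM in Flt3-ITD HSPC. S100a8, an alarmin of neutrophils, had 23.9 and 99.5 RPKM in Npm1c HSPC, against 65.2 and 61.6 RPKM in Flt3-ITD HSPC. Without Npm1c replicate 2, 13 of the 18 fell, and without Npm1c replicate 1, 2 rose and 0 fell. The summed level of the 24 late neutrophil markers was 112 and 475 RPKM in Npm1c HSPC, against 328 and 305 RPKM in Flt3-ITD HSPC, and 84.6 and 67.7 RPKM in WT HSPC. The primary granule markers summed to 787 and 807 RPKM in Npm1c HSPC, against 1968 and 952 RPKM in Flt3-ITD HSPC, and 1118 and 1171 RPKM in WT HSPC. No marker of either list was at 0 in all 4 libraries.

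**Figure D4:**
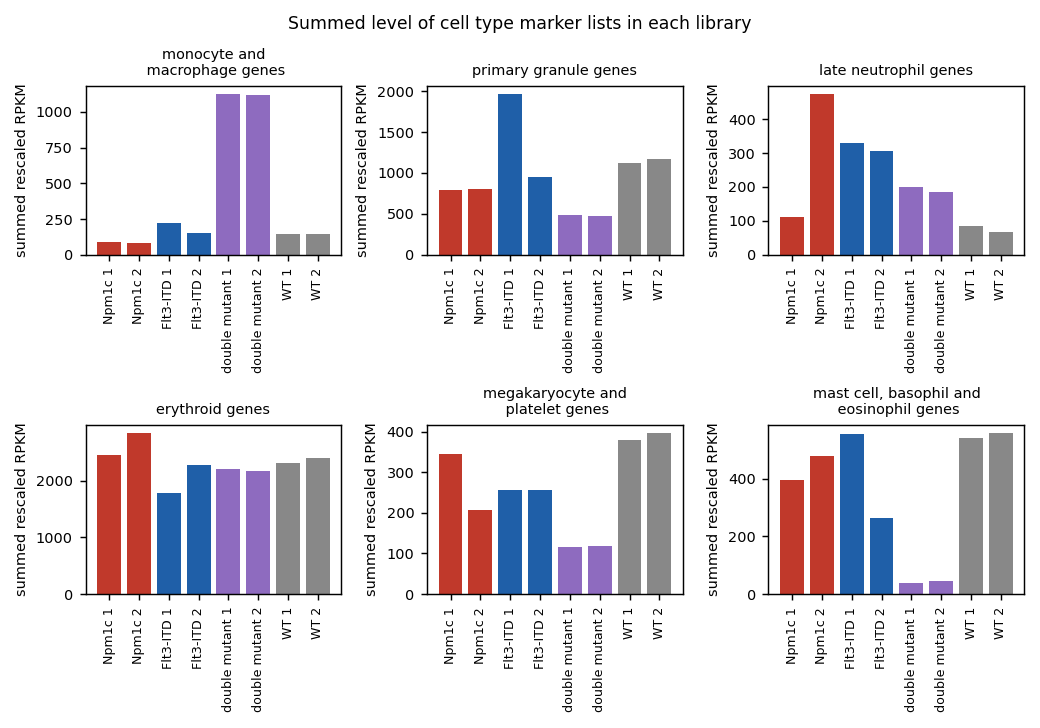
Summed rescaled RPKM of 6 cell type marker lists in each HSPC library; each bar is 1 library, with Npm1c, Flt3-ITD, double mutant and WT libraries from left to right. The monocyte sum is lower in both Npm1c libraries than in both Flt3-ITD libraries, while the late neutrophil sum is both lowest and highest in Npm1c among these 4 libraries and Flt3-ITD replicate 1 has the highest primary granule sum.

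Of 8 stem cell genes tested, 2 rose and 1 fell, but 2 higher and 0 lower without Npm1c replicate 1 and 4 higher and 1 lower without Flt3-ITD replicate 2. The stem cell list had 1 higher and 1 lower on the scale as deposited. Kit, the receptor for stem cell factor, had 15.2 and 14.5 RPKM in Npm1c HSPC, against 12.0 and 11.1 RPKM in Flt3-ITD HSPC (log2 difference 0.36 ± 0.05 SE, adjusted p = 0.00641). Cd34, a sialomucin of mouse progenitors, fell, with 8.44 and 9.23 RPKM in Npm1c HSPC, against 24.0 and 15.5 RPKM in Flt3-ITD HSPC (log2 difference -1.09 ± 0.17 SE, adjusted p = 0.0103, but 0.0591 without Npm1c replicate 1). WT HSPC held 13.2 and 13.6 RPKM of Cd34, below both Flt3-ITD libraries and above both Npm1c libraries. The defining stem cell genes Mecom and Procr were near 0 in these libraries, with Mecom at 0.0626 and 0.0641 RPKM in Npm1c HSPC, against 0.0358 and 0.0458 RPKM in Flt3-ITD HSPC. Procr had 0.0369 and 0.0716 RPKM in Npm1c HSPC, against 0.111 and 0.0331 RPKM in Flt3-ITD HSPC. Angpt1 and Mllt3, further stem cell genes, did not pass, with log2 differences of 0.31 and 0.28.

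Of 8 lymphoid progenitor genes tested, 4 fell and 1 rose; the number lower was 4 with library weights, 0 in the 4-library fit, 0 without Npm1c replicate 1, 2 without Npm1c replicate 2, 4 without Flt3-ITD replicate 1 and 4 without Flt3-ITD replicate 2. Those higher numbered 0 without Npm1c replicate 1, 0 without Npm1c replicate 2 and 2 without Flt3-ITD replicate 2. Notch1, the receptor for T lineage commitment, had 0.931 and 1.05 RPKM in Npm1c HSPC, against 2.50 and 1.69 RPKM in Flt3-ITD HSPC (log2 difference -0.78 ± 0.13 SE, adjusted p = 0.0121, but 0.0648 without Npm1c replicate 1). Flt3-ITD replicate 1 was the highest of the 4 libraries for it. Cd52, a surface glycopeptide of leukocytes, had 7.36 and 8.84 RPKM in Npm1c HSPC, against 16.3 and 11.7 RPKM in Flt3-ITD HSPC (log2 difference -0.74 ± 0.15 SE, adjusted p = 0.0214, but 0.0998 without Npm1c replicate 1 and 0.0544 without Npm1c replicate 2). Sox4, a transcription factor of early progenitors, had 2.32 and 2.27 RPKM in Npm1c HSPC, against 4.39 and 3.05 RPKM in Flt3-ITD HSPC (log2 difference -0.58 ± 0.14 SE, adjusted p = 0.0292, but 0.10 without Npm1c replicate 1 and 0.12 without Npm1c replicate 2). Neither call held without either Npm1c library. Il7r, the interleukin-7 receptor, was the gene that rose, with 1.75 and 1.43 RPKM in Npm1c HSPC, against 0.674 and 1.16 RPKM in Flt3-ITD HSPC (log2 difference 0.58 ± 0.15 SE, adjusted p = 0.0396, but 0.16 without Npm1c replicate 1 and 0.0877 without Npm1c replicate 2). Cd52 and Cd34 are also expressed by myeloid progenitors. Among 12 adhesion and surface genes 5 fell and none rose, and the number was 4 with library weights, 0 in the 4-library fit, 1 without Npm1c replicate 1, 2 without Npm1c replicate 2, 5 without Flt3-ITD replicate 1 and 6 without Flt3-ITD replicate 2. Those higher numbered 1 without Npm1c replicate 2 and 2 without Flt3-ITD replicate 2. Cd93 had 21.5 and 20.7 RPKM in Npm1c HSPC, against 45.4 and 33.9 RPKM in Flt3-ITD HSPC (log2 difference -0.88 ± 0.12 SE, adjusted p = 0.00611). Selplg, the selectin ligand PSGL-1, had 9.20 and 8.64 RPKM in Npm1c HSPC, against 21.7 and 13.9 RPKM in Flt3-ITD HSPC (log2 difference -0.92 ± 0.18 SE, adjusted p = 0.0173, but 0.0671 without Npm1c replicate 1 and 0.085 without Npm1c replicate 2). Of the 4 libraries, Flt3-ITD replicate 1 was the highest for both. Cd27, a receptor of the tumour necrosis factor family, had 2.56 and 2.76 RPKM in Npm1c HSPC, against 4.50 and 3.66 RPKM in Flt3-ITD HSPC (log2 difference -0.53 ± 0.10 SE, adjusted p = 0.0168, but 0.0809 without Npm1c replicate 1 and 0.0604 without Npm1c replicate 2). The integrin gene Itga4 did not pass (log2 difference 0.17, adjusted p = 0.13).

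Cytokine receptors moved both ways: of 23 tested, 5 rose and 10 fell. The number lower changed with the fit; it was 8 with library weights, 0 in the 4-library fit, 3 without Npm1c replicate 1, 4 without Npm1c replicate 2, 8 without Flt3-ITD replicate 1 and 15 without Flt3-ITD replicate 2. Those higher numbered 3 without Npm1c replicate 1 and 3 without Npm1c replicate 2. The receptor list had 3 higher and 9 lower on the scale as deposited and 4 higher and 5 lower with no filter.  Il6st, the gp130 subunit of interleukin-6 type receptors, had 1.84 and 1.56 RPKM in Npm1c HSPC, against 5.05 and 3.44 RPKM in Flt3-ITD HSPC (log2 difference -1.09 ± 0.15 SE, adjusted p = 0.00591). Il3ra, the interleukin-3 receptor subunit, had 2.81 and 3.02 RPKM in Npm1c HSPC, against 5.37 and 4.42 RPKM in Flt3-ITD HSPC (log2 difference -0.66 ± 0.09 SE, adjusted p = 0.00504). Csf1r, given above, was among those lower. Among those higher were Kit and Il7r, given above, Ifngr1, and Il1rl1, the interleukin-33 receptor of mast cells, with 6.28 and 6.00 RPKM in Npm1c HSPC, against 4.08 and 4.57 RPKM in Flt3-ITD HSPC (log2 difference 0.46 ± 0.06 SE, adjusted p = 0.00499). Epor, the erythropoietin receptor, had 26.0 and 23.4 RPKM in Npm1c HSPC, against 20.5 and 24.2 RPKM in Flt3-ITD HSPC and did not pass (log2 difference 0.14, adjusted p = 0.26).

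FLT3-ITD is known to activate STAT5, whose targets include Pim1, Socs2 and Cish. Of 12 genes of the STAT5 and cytokine list tested, 4 were lower in Npm1c and 1 was higher; the number lower was 3 with library weights, 0 in the 4-library fit, 3 without Npm1c replicate 1, 2 without Npm1c replicate 2, 3 without Flt3-ITD replicate 1 and 4 without Flt3-ITD replicate 2. Those higher numbered 0 without Npm1c replicate 1, 0 without Npm1c replicate 2 and 0 without Flt3-ITD replicate 1. The STAT5 list had 0 higher and 4 lower on the scale as deposited. Pim1, a serine/threonine kinase, had 10.5 and 8.23 RPKM in Npm1c HSPC, against 16.0 and 17.4 RPKM in Flt3-ITD HSPC (log2 difference -0.81 ± 0.10 SE, adjusted p = 0.00489), with 13.4 and 13.3 RPKM in WT HSPC. Id1, an inhibitor of helix-loop-helix factors, had 0.396 and 0.476 RPKM in Npm1c HSPC, against 1.45 and 1.04 RPKM in Flt3-ITD HSPC (log2 difference -0.89 ± 0.11 SE, adjusted p = 0.0044). In both genes the WT libraries lay between the lines. Id1 reached the minimum in no Npm1c library and was tested only through Flt3-ITD, which fixed its direction. Ccnd3, a D-type cyclin, had 3.44 and 3.33 RPKM in Npm1c HSPC, against 4.39 and 3.88 RPKM in Flt3-ITD HSPC (log2 difference -0.25 ± 0.06 SE, adjusted p = 0.0322, but 0.0533 without Flt3-ITD replicate 1, 0.095 without Npm1c replicate 1 and 0.13 without Npm1c replicate 2). Tnfrsf13b, a receptor of the tumour necrosis factor family, had 1.85 and 1.81 RPKM in Npm1c HSPC, against 4.48 and 2.73 RPKM in Flt3-ITD HSPC (log2 difference -0.78 ± 0.17 SE, adjusted p = 0.025, but 0.0941 without Npm1c replicate 1 and 0.10 without Npm1c replicate 2). Stat5a itself was the gene that rose, with 6.41 and 6.45 RPKM in Npm1c HSPC, against 5.46 and 5.75 RPKM in Flt3-ITD HSPC (log2 difference 0.18 ± 0.04 SE, adjusted p = 0.0295, but 0.0546 without Flt3-ITD replicate 1, 0.10 without Npm1c replicate 1 and 0.11 without Npm1c replicate 2). Socs2, a feedback inhibitor of cytokine receptors, was under the minimum and not tested, with 0.0566 and 0.0395 RPKM in Npm1c HSPC, against 1.0 and 0.578 RPKM in Flt3-ITD HSPC; both Flt3-ITD libraries were above both Npm1c libraries. Cish had 0.159 and 0.135 RPKM in Npm1c HSPC, against 0.212 and 0.201 RPKM in Flt3-ITD HSPC.

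Of 9 genes induced by the MAPK cascade as feedback, 1 rose and 1 fell, but 0 higher and 1 lower without Npm1c replicate 1, 4 higher and 1 lower without Flt3-ITD replicate 1 and 1 higher and 3 lower without Flt3-ITD replicate 2. The MAPK list had 0 higher and 1 lower on the scale as deposited and 3 higher and 1 lower after quantile normalization. Dusp5, a phosphatase of nuclear ERK, had 1.12 and 1.01 RPKM in Npm1c HSPC, against 2.87 and 2.28 RPKM in Flt3-ITD HSPC (log2 difference -0.97 ± 0.09 SE, adjusted p = 0.00226). The WT libraries, at 1.06 and 1.16 RPKM, lay at the level of Npm1c. Myc rose, with 9.05 and 8.24 RPKM in Npm1c HSPC, against 7.40 and 6.86 RPKM in Flt3-ITD HSPC (log2 difference 0.26 ± 0.06 SE, adjusted p = 0.0268, but 0.11 without Npm1c replicate 1). WT HSPC were below both lines at 5.63 and 5.73 RPKM. Dusp6, a phosphatase of cytoplasmic ERK, had 5.08 and 4.70 RPKM in Npm1c HSPC, against 4.83 and 2.96 RPKM in Flt3-ITD HSPC and did not pass (log2 difference 0.33, adjusted p = 0.25).

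Among stress genes, the inducible HSP70 pair fell, Hsph1 and Hsp90aa1 rose and the other 9 did not pass. Of 13 heat shock and chaperone genes tested, 2 rose and 2 fell, with a median log2 difference of 0.06 (-0.03 on the scale as deposited), but 0 higher and 0 lower without Npm1c replicate 1, 0 higher and 0 lower without Npm1c replicate 2, 0 higher and 2 lower without Flt3-ITD replicate 1 and 4 higher and 4 lower without Flt3-ITD replicate 2. The heat shock list had 0 higher and 2 lower on the scale as deposited and 1 higher and 2 lower after quantile normalization. Hspa1a, an inducible HSP70, had 0.272 and 0.419 RPKM in Npm1c HSPC, against 4.02 and 1.42 RPKM in Flt3-ITD HSPC (log2 difference -1.81 ± 0.34 SE, adjusted p = 0.017, but 0.0828 without Npm1c replicate 1 and 0.0658 without Npm1c replicate 2). Hspa1b, its near-identical neighbour, had 0.963 and 0.908 RPKM in Npm1c HSPC, against 4.94 and 2.31 RPKM in Flt3-ITD HSPC (log2 difference -1.45 ± 0.26 SE, adjusted p = 0.0147, but 0.0656 without Npm1c replicate 1 and 0.0739 without Npm1c replicate 2). Both reached the minimum in no Npm1c library. Reads of these copies can be shared or dropped in counting, so the split between them is uncertain, and Flt3-ITD replicate 1 was the highest of the 4 libraries for both. Hsph1, an HSP110 exchange factor, rose, with 4.37 and 4.63 RPKM in Npm1c HSPC, against 3.39 and 3.52 RPKM in Flt3-ITD HSPC (log2 difference 0.34 ± 0.07 SE, adjusted p = 0.0254, but 0.053 without Flt3-ITD replicate 1, 0.0729 without Npm1c replicate 1 and 0.11 without Npm1c replicate 2). Hsp90aa1, the inducible HSP90, rose, with 186 and 186 RPKM in Npm1c HSPC, against 158 and 169 RPKM in Flt3-ITD HSPC (log2 difference 0.19 ± 0.05 SE, adjusted p = 0.0326, but 0.0659 without Flt3-ITD replicate 1, 0.11 without Npm1c replicate 1 and 0.12 without Npm1c replicate 2). Of 11 immediate early genes, which respond within minutes to signals and to handling of cells, 3 fell, but 0 higher and 1 lower without Npm1c replicate 2, 2 higher and 3 lower without Flt3-ITD replicate 1 and 0 higher and 10 lower without Flt3-ITD replicate 2. They were Klf2, Jund and Klf6. Jund fell (log2 difference -0.44 ± 0.11 SE, adjusted p = 0.0321, but 0.0955 without Npm1c replicate 1 and 0.14 without Npm1c replicate 2) and Klf6 likewise (log2 difference -0.29 ± 0.05 SE, adjusted p = 0.0147, but 0.0708 without Npm1c replicate 2). Klf2 had 0.993 and 1.18 RPKM in Npm1c HSPC, against 1.83 and 1.58 RPKM in Flt3-ITD HSPC (log2 difference -0.47 ± 0.08 SE, adjusted p = 0.0105). WT HSPC, at 0.548 and 0.568 RPKM, were below both lines for it.

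Targets of p53, the tumour suppressor that NPM1 is known to regulate through ARF and MDM2, were higher in Npm1c HSPC: 7 of 11 tested rose and none fell, where 7.81% of all genes rose. The median log2 difference was 0.29, and the number higher was 4 with library weights, 0 in the 4-library fit, 4 without Npm1c replicate 1, 4 without Npm1c replicate 2, 7 without Flt3-ITD replicate 1 and 7 without Flt3-ITD replicate 2. Genes lower numbered 1 without Flt3-ITD replicate 2. The p53 list had 3 higher and 0 lower on the scale as deposited. Phlda3, a repressor of AKT that reached the minimum in Npm1c alone, had 2.13 and 3.12 RPKM in Npm1c HSPC, against 0.832 and 0.860 RPKM in Flt3-ITD HSPC (log2 difference 1.20 ± 0.15 SE, adjusted p = 0.00416). Ccng1, cyclin G1, had 53.2 and 64.1 RPKM in Npm1c HSPC, against 35.5 and 39.5 RPKM in Flt3-ITD HSPC (log2 difference 0.63 ± 0.09 SE, adjusted p = 0.00725). In both genes Npm1c replicate 2 was the highest of the 4 libraries and both Npm1c libraries were above WT. Over the 11 genes, both Npm1c libraries were above both WT libraries for 6 and below them for 2. Both Flt3-ITD libraries were above them for 5 and below them for 4. Over all 8595 genes these counts were 3136 and 3559 for Npm1c and 2558 and 2644 for Flt3-ITD. Mdm2, the ligase that degrades p53, had 2.42 and 2.71 RPKM in Npm1c HSPC, against 1.95 and 2.01 RPKM in Flt3-ITD HSPC (log2 difference 0.30 ± 0.06 SE, adjusted p = 0.018, but 0.0744 without Npm1c replicate 2). Trp53inp1, which takes part in p53-dependent death, had 2.62 and 2.61 RPKM in Npm1c HSPC, against 1.67 and 1.78 RPKM in Flt3-ITD HSPC (log2 difference 0.49 ± 0.05 SE, adjusted p = 0.00226). These differences are small beside that of Phlda3. Bax, a death effector, had 26.1 and 25.6 RPKM in Npm1c HSPC, against 21.4 and 19.8 RPKM in Flt3-ITD HSPC (log2 difference 0.32 ± 0.05 SE, adjusted p = 0.0112, but 0.0586 without Npm1c replicate 1). Cdkn1a, the cell cycle inhibitor most often used as a p53 readout, was under the minimum, with 0.629 and 1.20 RPKM in Npm1c HSPC, against 0.479 and 0.519 RPKM in Flt3-ITD HSPC.

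Genes of the nucleolus, where NPM1 normally resides, and MYC targets rose in part: 10 of 26 tested rose and none fell, with a median log2 difference of 0.21. The differences were small and the count moved with single libraries: it was 2 with library weights, 0 in the 4-library fit, 2 without Npm1c replicate 1, 1 without Npm1c replicate 2, 7 without Flt3-ITD replicate 1 and 15 without Flt3-ITD replicate 2. The nucleolar list had 2 higher and 0 lower on the scale as deposited. Rrp12, an export factor of ribosomal subunits, had 16.3 and 17.6 RPKM in Npm1c HSPC, against 12.7 and 14.2 RPKM in Flt3-ITD HSPC (log2 difference 0.32 ± 0.06 SE, adjusted p = 0.0182, but 0.0893 without Npm1c replicate 2). Odc1, the first enzyme of polyamine synthesis and a MYC target, had 227 and 228 RPKM in Npm1c HSPC, against 166 and 198 RPKM in Flt3-ITD HSPC (log2 difference 0.33 ± 0.08 SE, adjusted p = 0.0294, but 0.11 without Npm1c replicate 1 and 0.12 without Npm1c replicate 2). Wdr74, a factor of large subunit assembly, had 41.3 and 44.2 RPKM in Npm1c HSPC, against 33.9 and 37.0 RPKM in Flt3-ITD HSPC (log2 difference 0.27 ± 0.06 SE, adjusted p = 0.0316, but 0.0737 without Flt3-ITD replicate 1, 0.0711 without Npm1c replicate 1 and 0.14 without Npm1c replicate 2). The libraries of the lines did not overlap for these genes, as in every gene with a call. Ncl, nucleolin, did not pass, with 44.3 and 51.9 RPKM in Npm1c HSPC, against 39.3 and 42.1 RPKM in Flt3-ITD HSPC (log2 difference 0.23, adjusted p = 0.30). Of 27 cytosolic ribosomal protein genes 1 rose and none fell, with a median log2 difference of 0.04 (-0.06 on the scale as deposited), but 0 higher and 0 lower without Npm1c replicate 1, 0 higher and 0 lower without Npm1c replicate 2, 0 higher and 0 lower without Flt3-ITD replicate 1 and 1 higher and 1 lower without Flt3-ITD replicate 2. The ribosomal list had 0 higher and 0 lower on the scale as deposited. That gene, Rplp1 of the ribosomal stalk, had 2706 and 2708 RPKM in Npm1c HSPC, against 2404 and 2447 RPKM in Flt3-ITD HSPC (log2 difference 0.16 ± 0.04 SE, adjusted p = 0.0371, but 0.0912 without Flt3-ITD replicate 1, 0.11 without Npm1c replicate 1 and 0.11 without Npm1c replicate 2).

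Transcripts of the mitochondrial genome were higher in Npm1c for 5 of 13 genes tested and lower for none, with a median log2 difference of 0.43. mt-Cytb, of complex III, had 1372 and 1170.2 RPKM in Npm1c HSPC, against 748 and 948 RPKM in Flt3-ITD HSPC (log2 difference 0.59 ± 0.12 SE, adjusted p = 0.0197, but 0.0922 without Npm1c replicate 1). mt-Nd4, of complex I, had 424 and 354 RPKM in Npm1c HSPC, against 232 and 305 RPKM in Flt3-ITD HSPC (log2 difference 0.54 ± 0.13 SE, adjusted p = 0.0329, but 0.0556 without Flt3-ITD replicate 1, 0.14 without Npm1c replicate 1 and 0.0613 without Npm1c replicate 2). The count was not stable: it was 3 with library weights, 0 in the 4-library fit, 0 without Npm1c replicate 1, 2 without Npm1c replicate 2, 1 without Flt3-ITD replicate 1 and 11 without Flt3-ITD replicate 2. The mitochondrial list had 1 higher and 0 lower with no filter and 8 higher and 0 lower with limma voom on recovered reads. Of 28 nuclear genes of oxidative phosphorylation, 2 fell and none rose, with a median log2 difference of 0.04 (-0.06 on the scale as deposited), but 0 higher and 0 lower without Npm1c replicate 1, 0 higher and 1 lower without Npm1c replicate 2, 0 higher and 1 lower without Flt3-ITD replicate 1 and 2 higher and 2 lower without Flt3-ITD replicate 2. The genes that fell were Uqcrfs1, the Rieske protein of complex III (log2 difference -0.24 ± 0.05 SE, adjusted p = 0.0168, but 0.0837 without Npm1c replicate 1), and Cox7c of complex IV (log2 difference -0.20 ± 0.05 SE, adjusted p = 0.0333, but 0.0655 without Flt3-ITD replicate 1, 0.11 without Npm1c replicate 1 and 0.13 without Npm1c replicate 2).

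Of 16 glycolysis enzymes 4 fell and 2 rose, and the number lower was 4 with library weights, 0 in the 4-library fit, 0 without Npm1c replicate 1, 0 without Npm1c replicate 2, 5 without Flt3-ITD replicate 1 and 11 without Flt3-ITD replicate 2. Those higher numbered 0 without Npm1c replicate 2 and 1 without Flt3-ITD replicate 1. The glycolysis list had 1 higher and 3 lower on the scale as deposited and 2 higher and 2 lower with no filter. Pkm, pyruvate kinase, had 28.1 and 30.6 RPKM in Npm1c HSPC, against 74.7 and 44.5 RPKM in Flt3-ITD HSPC (log2 difference -0.96 ± 0.21 SE, adjusted p = 0.0231, but 0.10 without Npm1c replicate 1 and 0.085 without Npm1c replicate 2). Pgam1, phosphoglycerate mutase, had 15.3 and 16.7 RPKM in Npm1c HSPC, against 35.8 and 22.9 RPKM in Flt3-ITD HSPC (log2 difference -0.82 ± 0.18 SE, adjusted p = 0.0236, but 0.10 without Npm1c replicate 1 and 0.0837 without Npm1c replicate 2). Hk3, a hexokinase of myeloid cells, had 1.86 and 2.32 RPKM in Npm1c HSPC, against 5.95 and 3.04 RPKM in Flt3-ITD HSPC (log2 difference -0.89 ± 0.25 SE, adjusted p = 0.0466, but 0.18 without Npm1c replicate 1 and 0.11 without Npm1c replicate 2). Hk2 fell too (log2 difference -0.68 ± 0.16 SE, adjusted p = 0.0298, but 0.13 without Npm1c replicate 1 and 0.0865 without Npm1c replicate 2). Hk1, the hexokinase of red cells, rose, with 10.2 and 10.6 RPKM in Npm1c HSPC, against 7.85 and 8.61 RPKM in Flt3-ITD HSPC (log2 difference 0.32 ± 0.06 SE, adjusted p = 0.0127, but 0.0718 without Npm1c replicate 2). Ldha rose as well (log2 difference 0.25 ± 0.06 SE, adjusted p = 0.0287, but 0.0652 without Flt3-ITD replicate 1 and 0.11 without Npm1c replicate 2). The hexokinases therefore moved in both directions. Of 18 genes of cholesterol synthesis 5 fell and none rose, the count being 0 without Npm1c replicate 1, 4 without Npm1c replicate 2, 3 without Flt3-ITD replicate 1 and 8 without Flt3-ITD replicate 2. The cholesterol list had 0 higher and 3 lower with listed-gene scaling, 1 higher and 3 lower after quantile normalization and 0 higher and 3 lower with limma voom on recovered reads. Fdps, which makes farnesyl diphosphate, had 2.15 and 2.32 RPKM in Npm1c HSPC, against 3.50 and 2.98 RPKM in Flt3-ITD HSPC (log2 difference -0.45 ± 0.07 SE, adjusted p = 0.0105, but 0.0582 without Npm1c replicate 1). Also lower was Mvd (log2 difference -0.35 ± 0.10 SE, adjusted p = 0.0477, but 0.14 without Flt3-ITD replicate 1, 0.19 without Npm1c replicate 1 and 0.0744 without Npm1c replicate 2). Fdft1 fell (log2 difference -0.29 ± 0.05 SE, adjusted p = 0.0168, but 0.0738 without Npm1c replicate 1), and so did Insig1 (log2 difference -0.15 ± 0.04 SE, adjusted p = 0.0444, but 0.0592 without Flt3-ITD replicate 1, 0.10 without Npm1c replicate 1 and 0.18 without Npm1c replicate 2).

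Cell cycle genes were slightly lower in Npm1c: 13 of 25 S phase genes and 13 of 25 genes of G2 and mitosis fell, and none of either list rose. The median log2 difference was -0.17 for the S phase list and -0.18 for the G2 and mitosis list, so these calls rest on changes well under 2-fold. For the S phase list, the number lower was 2 with library weights, 0 in the 4-library fit, 2 without Npm1c replicate 1, 2 without Npm1c replicate 2, 13 without Flt3-ITD replicate 1 and 13 without Flt3-ITD replicate 2. For the G2 and mitosis list, the number lower was 4 with library weights, 0 in the 4-library fit, 2 without Npm1c replicate 1, 5 without Npm1c replicate 2, 11 without Flt3-ITD replicate 1 and 13 without Flt3-ITD replicate 2. Those higher numbered 1 without Flt3-ITD replicate 2. Uhrf1, which brings DNA methylation to replicated DNA, had 14.7 and 15.1 RPKM in Npm1c HSPC, against 19.7 and 18.9 RPKM in Flt3-ITD HSPC (log2 difference -0.36 ± 0.04 SE, adjusted p = 0.00386). Its Npm1c libraries were below those of WT as well. Pcna, the clamp of the replication fork, had 76.7 and 79.6 RPKM in Npm1c HSPC, against 90.4 and 90.5 RPKM in Flt3-ITD HSPC (log2 difference -0.21 ± 0.04 SE, adjusted p = 0.0168, but 0.0837 without Npm1c replicate 1 and 0.051 without Npm1c replicate 2). Kif23, a kinesin of cytokinesis, had 10.3 and 11 RPKM in Npm1c HSPC, against 16.8 and 15.1 RPKM in Flt3-ITD HSPC (log2 difference -0.56 ± 0.06 SE, adjusted p = 0.00353). Nusap1, a spindle protein, had 13.2 and 13.5 RPKM in Npm1c HSPC, against 17.8 and 16.9 RPKM in Flt3-ITD HSPC (log2 difference -0.36 ± 0.05 SE, adjusted p = 0.00461). For Uhrf1 and Nusap1 the WT libraries were above both lines.

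Replication-dependent histone genes, which have a single exon and end in a stem-loop in place of a poly(A) tail, fell in 16 of 28 cases and rose in none, with a median log2 difference of -0.24, and the number lower was 4 with library weights, 0 in the 4-library fit, 11 without Npm1c replicate 1, 1 without Npm1c replicate 2, 18 without Flt3-ITD replicate 1 and 11 without Flt3-ITD replicate 2. The histone list had 0 higher and 10 lower after quantile normalization and 0 higher and 6 lower with no filter. Hist2h4 had 51.5 and 47.3 RPKM in Npm1c HSPC, against 65.3 and 68.0 RPKM in Flt3-ITD HSPC (log2 difference -0.43 ± 0.05 SE, adjusted p = 0.00447). Hist1h1c, a linker histone gene, had 219.9 and 198 RPKM in Npm1c HSPC, against 245 and 264 RPKM in Flt3-ITD HSPC (log2 difference -0.29 ± 0.06 SE, adjusted p = 0.0244, but 0.10 without Npm1c replicate 2). Histone genes of 1 type are near-identical copies, so single members are uncertain. The same direction was seen over protein-coding nuclear genes with 1 exon in every annotated transcript, a class noticed after the values were seen: 95 of 174 fell (54.6%) and 5 rose, with a median log2 difference of -0.29. Without the histone genes 65 of 117 fell (55.6%), with a median of -0.34. The share that fell was 31.5% of 289 genes with 2 exons, 13.6% of 1625 genes with 3 to 5 exons and 10.6% of 6159 genes with 6 or more. The median over the genes with 1 exon was -0.31 between the male-marked libraries and -0.24 between the female-marked libraries. Of the 174 genes, 50 fell with library weights, 11 in the 4-library fit, 64 without Npm1c replicate 1 and 43 without Npm1c replicate 2.

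Several genes of this class passed in both fits and were named after their values were seen. Imp3, a factor of the small ribosomal subunit, had 34.8 and 32.8 RPKM in Npm1c HSPC, against 50.3 and 50.9 RPKM in Flt3-ITD HSPC (log2 difference -0.58 ± 0.05 SE, adjusted p = 0.00172). Tspyl1, of the TSPY and SET family, had 13 and 12.8 RPKM in Npm1c HSPC, against 19.8 and 19.4 RPKM in Flt3-ITD HSPC (log2 difference -0.58 ± 0.05 SE, adjusted p = 0.00126). Cstf2t, a copy of the cleavage factor gene Cstf2, had 11.2 and 11.1 RPKM in Npm1c HSPC, against 16.4 and 16.8 RPKM in Flt3-ITD HSPC (log2 difference -0.55 ± 0.05 SE, adjusted p = 0.00151). Reads of unspliced RNA or genomic DNA and reads of mature RNA cannot be told apart over a gene with 1 exon, and whether such reads differ between the lines was not tested.

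**Figure D5:**
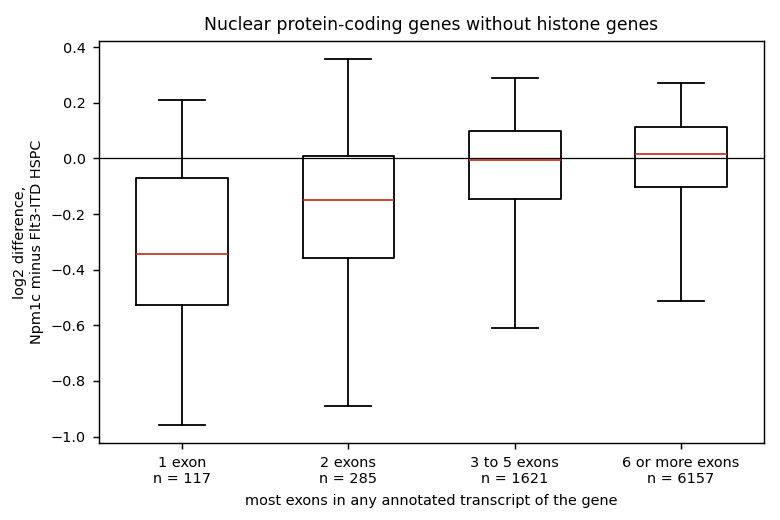
Log2 difference, Npm1c minus Flt3-ITD HSPC, of nuclear protein-coding genes without the histone genes, by the largest number of exons in any annotated transcript; boxes span the quartiles, the red line is the median and whiskers run from the 5th to the 95th percentile of genes. The median is -0.34 over the 117 genes with 1 exon, -0.15 over the 285 with 2 exons and close to 0 in the other classes.

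Erythroid genes moved little and in both directions: of 27 tested, 4 rose and 3 fell, with a median log2 difference of 0.10, but 2 higher and 1 lower without Npm1c replicate 1, 4 higher and 5 lower without Flt3-ITD replicate 1 and 14 higher and 3 lower without Flt3-ITD replicate 2. Over all genes tested 7.81% rose and 12.8% fell. Car1, a carbonic anhydrase of red cell precursors, had 626 and 740.0 RPKM in Npm1c HSPC, against 359 and 449 RPKM in Flt3-ITD HSPC (log2 difference 0.76 ± 0.12 SE, adjusted p = 0.00913). Car2 had 716 and 706 RPKM in Npm1c HSPC, against 466 and 550.2 RPKM in Flt3-ITD HSPC (log2 difference 0.49 ± 0.08 SE, adjusted p = 0.0093, but 0.0524 without Npm1c replicate 1). Rhag, of the Rhesus complex, rose (log2 difference 0.40 ± 0.11 SE, adjusted p = 0.0425, but 0.11 without Npm1c replicate 1 and 0.17 without Npm1c replicate 2), as did Aqp1, a water channel (log2 difference 0.46 ± 0.07 SE, adjusted p = 0.00725). Epb4.2 fell, with 2.37 and 2.56 RPKM in Npm1c HSPC, against 3.27 and 3.77 RPKM in Flt3-ITD HSPC (log2 difference -0.44 ± 0.07 SE, adjusted p = 0.0109, but 0.062 without Npm1c replicate 1). Sptb fell as well (log2 difference -0.28 ± 0.05 SE, adjusted p = 0.0125, but 0.0699 without Npm1c replicate 2), and both encode parts of the red cell membrane. Slc4a1, the anion exchanger band 3, did not pass (log2 difference -0.56, adjusted p = 0.14). The erythroid markers summed to 2449 and 2837 RPKM in Npm1c HSPC, against 1785 and 2278 RPKM in Flt3-ITD HSPC, so the Npm1c sums were higher in both libraries. Car1 and Car2, both called higher, make up much of each sum, so the sums do not describe the other markers.

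Of 18 megakaryocyte and platelet genes 2 rose and 1 fell, but 1 higher and 5 lower without Npm1c replicate 1, 10 higher and 1 lower without Npm1c replicate 2 and 1 higher and 1 lower without Flt3-ITD replicate 1. Gp5, a platelet glycoprotein, had 22.8 and 18.9 RPKM in Npm1c HSPC, against 13.6 and 16.1 RPKM in Flt3-ITD HSPC (log2 difference 0.48 ± 0.11 SE, adjusted p = 0.0281, but 0.0703 without Flt3-ITD replicate 1 and 0.12 without Npm1c replicate 1). Thbs1, thrombospondin 1, fell, with 21.8 and 14.2 RPKM in Npm1c HSPC, against 27.8 and 30.8 RPKM in Flt3-ITD HSPC (log2 difference -0.71 ± 0.17 SE, adjusted p = 0.0305). Npm1c replicate 1 had the highest summed level of these markers of the 4 libraries, with 344 and 206 RPKM in Npm1c HSPC, against 255 and 256 RPKM in Flt3-ITD HSPC. Of 14 mast cell, basophil and eosinophil genes 2 rose, Gata2 and Il1rl1, and none fell, but 1 higher and 0 lower without Npm1c replicate 1, 1 higher and 0 lower without Npm1c replicate 2, 5 higher and 0 lower without Flt3-ITD replicate 1 and 2 higher and 7 lower without Flt3-ITD replicate 2. Cpa3, the mast cell carboxypeptidase, did not pass, with 37.6 and 51.7 RPKM in Npm1c HSPC, against 37.3 and 18.9 RPKM in Flt3-ITD HSPC (log2 difference 0.72, adjusted p = 0.12). The 20 listed markers summed to 395 and 479.8 RPKM in Npm1c HSPC, against 556 and 263 RPKM in Flt3-ITD HSPC, with Mcpt4 at 0.

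No marker of mature B, plasma, T or NK cells passed, while most of the few stromal and endothelial genes tested did. None of 7 B and plasma cell genes passed in limma, 0 with an unadjusted p under 0.05, and limma voom on recovered reads called 0 higher and 0 lower. The 19 listed markers summed to 139 and 88.9 RPKM in Npm1c HSPC, against 109.8 and 108 RPKM in Flt3-ITD HSPC. The single T and NK cell gene tested, Gzmb, did not pass. The list summed to 5.13 and 5.22 RPKM in Npm1c HSPC, against 4.72 and 5.39 RPKM in Flt3-ITD HSPC. Of 4 stromal and endothelial genes tested, 2 rose and 1 fell, but 1 higher and 1 lower without Npm1c replicate 1 and 1 higher and 0 lower without Npm1c replicate 2. Their list summed to 13.2 and 14.0 RPKM in Npm1c HSPC, against 12.1 and 7.28 RPKM in Flt3-ITD HSPC. Col1a1, a chain of type I collagen, had 4.30 and 4.26 RPKM in Npm1c HSPC, against 2.08 and 0.976 RPKM in Flt3-ITD HSPC (log2 difference 1.29 ± 0.23 SE, adjusted p = 0.0132, but 0.0648 without Npm1c replicate 1 and 0.0664 without Npm1c replicate 2). Col1a2, the other chain, had 1.68 and 1.75 RPKM in Npm1c HSPC, against 0.813 and 0.457 RPKM in Flt3-ITD HSPC (log2 difference 0.98 ± 0.14 SE, adjusted p = 0.00639). Col1a2 reached the minimum in no Flt3-ITD library and was tested only through Npm1c, which fixed its direction. WT HSPC held 4.85 and 5.11 RPKM of Col1a1, above both Flt3-ITD libraries and at least as high as Npm1c. Pecam1, an adhesion molecule of endothelium and also of myeloid cells, fell, with 1.64 and 1.46 RPKM in Npm1c HSPC, against 2.80 and 2.18 RPKM in Flt3-ITD HSPC (log2 difference -0.54 ± 0.10 SE, adjusted p = 0.0155, but 0.0813 without Npm1c replicate 2).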

How the data were processed

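RNA was sequenced from bone marrow cells of 5 groups of 2 libraries each, of which the 8 HSPC libraries were used. The authors deposited RPKM per gene for 16771 genes in each library. Per the labels' protocols, ribosomal RNA was depleted and the kit keeps strand. The submitters' processing notes name mm10 and the tools HTSeq, DiffBind and STAR (2.4.0), with no role given for each. The RPKM denominators and whole reads were recovered from the smallest steps of the values (16655 of 16655 genes with values above 0 in at least 2 libraries came out whole within 0.02 reads). Implied gene lengths exceeded the annotated span for 1563 of 16024 genes, so levels are not compared between genes.

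RPKM were divided by median-of-ratios factors over genes with at least 1 RPKM in all 8 libraries, because the share of reads outside listed genes enters the denominator and differs between replicates. All levels in the report are these rescaled RPKM, unless given as deposited. Differences are on the log2(rescaled RPKM + 0.5) scale, which understates low genes. They were tested with limma 3.58.1 in R 4.3.3 (variance trend, 8 HSPC libraries, no covariate, two-sided, Benjamini-Hochberg over 8595 genes, call at an adjusted p under 0.05), after a test on simulated data. Tables were made with pandas 2.3.3 and NumPy 2.4.6 under Python 3.11.15, and figures with matplotlib 3.10.9. An exact permutation test of 2 against 2 libraries cannot go below p = 0.333, so none was used. The p-values measure the spread between these libraries, which nothing in the labels ties to separate mice. Gene coordinates and exon counts are from GENCODE M21 (GRCm38), which matched 8289 of the tested genes.

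The genes named are Npm1, Flt3, the HoxA genes, the 15 largest rises and the 15 largest falls (at least 2 RPKM on average in the higher group, groups not overlapping, no predicted, small RNA or immune receptor segment genes) and up to 5 per list with the smallest adjusted p, besides members that did not pass. Some genes that this rule names are not reported here. Named outside this rule after their values were seen were Cebpb, Gbp3, Hist1h1c, Hk3, Hoxb3, Hoxb5, Ifit1, Ifnar1, Ifnar2, Ifngr1, Ifngr2, Irf7, Irf9, Isg15, Ly6c2, Oas1a, Odc1, Rhag and Wdr74, the genes with 1 exon and those of the closing observations. The comparison, its 35 lists and this rule were chosen with earlier results of these data known. Alternatives were other scalings (as deposited, listed-gene sum, quantile), pseudocounts of 0.1 and 1, other filters, the 4 libraries alone, library weights, a replicate block and leaving out each library; limma voom on recovered reads and a term for Y-linked transcripts were added after the data were seen.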

Additional observations from a re-analysis of the deposited data

How the results depend on the processing

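Of the choices tried, the ones about spread and single libraries moved the counts most. Against 671 genes higher and 1098 lower, the fit on the 4 libraries alone gave 13 and 38 (1992 genes had an unadjusted p under 0.05), and library weights gave 182 and 617. With RPKM as deposited 228 were higher and 1274 lower; here the shift of all genes by -0.09 on the log2 scale moves the balance. Leaving out 1 library gave from 132 to 1582 genes higher and from 376 to 2015 lower; both extremes above the full fit came without Flt3-ITD replicate 2, and the cause was not tested. The lone library left in a group is then assumed to vary like the other groups. The totals stayed within 1.5 times with listed-gene scaling (719 and 1007), quantile normalization (934 and 944) and pseudocounts of 0.1 (651 and 1103) and 1 (682 and 1085). They did so too with no filter (551 and 1035), a filter at a mean of 2 RPKM (564 and 818) and limma voom on recovered reads (888 and 1104). A similar total need not hold the same genes. With no filter, 393 of the 671 and 709 of the 1098 were still called, against 659 and 1033 with limma voom.

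The replicate numbers share no stated animal or batch. With the replicate block 471 genes were higher and 918 lower; the replicate differences of the 2 lines correlated at -0.126 over genes. A term for Y-linked transcripts, which crosses the numbers within these 2 lines and leaves the other groups as 1 level, was chosen after seeing the data and gave 902 and 1399.

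Where 1 library was left out, the lack of overlap between the lines all but fixed the sign of the called genes. Of the named genes that passed, none changed sign under any alternative run. The calls held less well: of 143 such genes, 113 were no longer called in the 4-library fit and 29 with library weights. Among those that did not pass, Npm1 was -0.024 on the deposited scale, Ngp ran from -1.46 to 0.63 and S100a8 from -1.39 to 0.65 when 1 library was left out. With 50227463 to 54899458 reads per library in the lines compared, replicates differed by more than counting error: over lowly counted genes, chi-square per degree of freedom was 4.01 in Npm1c and 5.98 in Flt3-ITD.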

Other observations

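The genes that passed in both the 8-library and the 4-library fit include several that belong to no list above, named here after their values were seen. Psap, the precursor of the saposins that help to break down sphingolipids, had 15.3 and 14.9 RPKM in Npm1c HSPC, against 30.2 and 28.1 RPKM in Flt3-ITD HSPC (log2 difference -0.93 ± 0.05 SE, adjusted p = 2.50e-04). Galns, a lysosomal sulfatase, had 5.52 and 4.62 RPKM in Npm1c HSPC, against 11.4 and 10.2 RPKM in Flt3-ITD HSPC (log2 difference -1.02 ± 0.09 SE, adjusted p = 0.00191). Acp5, tartrate-resistant acid phosphatase of osteoclasts and macrophages, had 1.10 and 1.0 RPKM in Npm1c HSPC, against 2.84 and 2.71 RPKM in Flt3-ITD HSPC (log2 difference -1.08 ± 0.05 SE, adjusted p = 2.37e-04). For Psap, Galns and Acp5 no library of one line overlapped the other, as in every gene with a call. Trim30a, an inhibitor of Toll-like receptor signalling, had 5.06 and 4.50 RPKM in Npm1c HSPC, against 12.1 and 9.96 RPKM in Flt3-ITD HSPC (log2 difference -1.12 ± 0.09 SE, adjusted p = 0.00151). Rassf4, of the RAS association domain family, had 2.07 and 1.95 RPKM in Npm1c HSPC, against 5.98 and 4.65 RPKM in Flt3-ITD HSPC (log2 difference -1.20 ± 0.10 SE, adjusted p = 0.00151). In double mutant HSPC the levels were 454 and 453 RPKM for Psap, 54.6 and 53.7 RPKM for Trim30a, 23.8 and 24.2 RPKM for Rassf4, 3.83 and 3.98 RPKM for Acp5 and 5.67 and 6.22 RPKM for Galns, of which the last alone lay below both Flt3-ITD libraries.

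Of the 13 genes higher in Npm1c HSPC in both fits, 6 are not named above. The largest differences among these 6 were in Amd2 and Gm5611, which have 1 exon. Amd2, which can share reads with its parent gene, had 1.82 and 2.04 RPKM in Npm1c HSPC, against 0.143 and 0.215 RPKM in Flt3-ITD HSPC (log2 difference 1.84 ± 0.08 SE, adjusted p = 2.37e-04). Gm5611 had 2.36 and 2.55 RPKM in Npm1c HSPC, against 0.540 and 0.693 RPKM in Flt3-ITD HSPC (log2 difference 1.41 ± 0.10 SE, adjusted p = 9.53e-04). Hopx, an atypical homeodomain protein of quiescent stem cells in several tissues, had 1.25 and 1.28 RPKM in Npm1c HSPC, against 0.180 and 0.305 RPKM in Flt3-ITD HSPC (log2 difference 1.25 ± 0.09 SE, adjusted p = 0.00104). Chst15, a sulfotransferase of chondroitin chains, had 4.31 and 4.49 RPKM in Npm1c HSPC, against 2.31 and 2.55 RPKM in Flt3-ITD HSPC (log2 difference 0.74 ± 0.06 SE, adjusted p = 0.00113). Gna14, a G protein subunit of the Gq class, had 5.15 and 5.63 RPKM in Npm1c HSPC, against 2.80 and 2.84 RPKM in Flt3-ITD HSPC (log2 difference 0.83 ± 0.07 SE, adjusted p = 0.00152). For Hopx the double mutant libraries held 1.63 and 1.44 RPKM and the WT libraries 0.221 and 0.230 RPKM. Kpna4, an importin alpha, had 16.0 and 17.0 RPKM in Npm1c HSPC, against 9.54 and 10.4 RPKM in Flt3-ITD HSPC (log2 difference 0.70 ± 0.05 SE, adjusted p = 0.00118).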
